A study of Mus musculus with 6 samples.

Results

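The cathepsins of the lysosome were followed in green fluorescent blood-forming cells grown in recipient mice from transplanted haematopoietic stem cells (HSCs), the source of every blood lineage. The members were taken by symbol and were Ctsa, Ctsb, Ctsc, Ctsd, Ctse, Ctsh, Ctsl, Ctss and Ctsz, that is, 9 of the 25033 gene symbols listed. In the inhibitor group, donor HSCs had been given an inhibitor of miR-31-5p, and GFP+ cells were later sorted from the marrow of the recipients. In the control group, donor HSCs had been given a control RNA, and GFP+ cells were sorted likewise. Both groups are labelled C57BL/6J, bone marrow, 6 months of age and HSCs, and each held 3 mRNA-seq libraries; the labels do not say whether the age is that of donors or recipients. Whether each library stands for its own recipient is not stated in the labels, so p-values rest on the spread between libraries, which may be technical.

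Cathepsins are proteases that are made as inactive precursors, carried through the Golgi with a mannose 6-phosphate tag and activated by the acid of the endosome and lysosome. Together they break down proteins delivered by endocytosis and autophagy. In blood cells they are best known from macrophages, dendritic cells and granulocytes, in which they also trim antigens for MHC class II and activate the proteases of cytotoxic and neutrophil granules. The family holds aspartic proteases (Ctsd, Ctse), cysteine proteases related to papain (Ctsb, Ctsc, Ctsh, Ctsl, Ctss, Ctsz) and a serine carboxypeptidase (Ctsa).

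A microRNA binds transcripts through its seed, bases 2 to 8 from its 5′ end. The mature sequence of the inhibited microRNA (RefSeq, GRCm38.p6, chromosome 4, 88910614 to 88910635, minus strand) is shown first, with the seed in capitals, so that it can be set against the cathepsin transcripts that hold its complement.
mmu-miR-31-5p: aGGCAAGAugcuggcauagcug
The complement of the seed, TCTTGCC, occurred in the longest annotated 3′ UTR (GENCODE M21, GRCm38) of 3 of the 9 cathepsins, and in that of 2353 of 20997 genes with an annotated 3′ UTR (11.2%). The 3 UTRs measured 3594 bases in Ctsb, 2737 in Ctsc and 4761 in Ctsl, and were the longest of the 9. The matches are given with their surroundings because they mark the members that could be paired by the seed, and the capitals mark the match.
Ctsb, chr14:63143716-63143722, plus strand: tacacttccttTCTTGCCtcaccacatgc
Ctsc, chr7:88290951-88290957, plus strand: tatcaaaagttTCTTGCCtgcagagccct
Ctsl, chr13:64363483-64363489, minus strand: ctactgagctaTCTTGCCagccccactag
In Ctsl the match was followed by an A, which makes it the longer form of site (TCTTGCCA), held by 745 of the 20997 genes (3.55%); it lay in 2 of 3 annotated 3′ UTRs of the gene. In Ctsc the match lay in 1 of 2 annotated 3′ UTRs, that of a transcript ending 19491 bases before the end of the gene. Gene-level counts do not tell these transcripts apart. A match is a description of the sequence and no evidence of binding.

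Libraries held 16873188 to 21245861 counts, so that 3 counts in a library corresponded to 0.141 to 0.178 CPM (CPM, counts scaled by library size, and by TMM where levels are given). Control libraries 1 and 3 stood apart in ribosomal precursor RNA: Rn45s had 1784 to 3145 counts in the inhibitor libraries and 20039, 3667 and 61656 in control libraries 1 to 3. The stem and progenitor genes Kit (406 ± 5.11 CPM in the inhibitor group, 402 ± 20.7 in the control group; SD, n = 3 each) and Cd34 (387 ± 13.1 and 363 ± 12.7) were well detected. The HSC genes Procr (7.54 ± 1.02 CPM in the inhibitor group, 1.06 ± 0.113 in the control group) and Hlf (3.65 ± 0.482 and 6.94 ± 0.577) were low, and the myeloid gene Lyz2 was abundant (1102 ± 46.3 and 2242 ± 69.6), so the label HSC does not describe all of the RNA. In bulk RNA, fewer cells of a type and less RNA per cell cannot be told apart.

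The cathepsins did not move as a block. Of the 9 members, all of which passed the filter on low counts, Ctsl, Ctsd, Ctss and Ctsb were higher in the inhibitor group, Ctsc, Ctsz and Ctsa were lower, and Ctsh and Ctse did not pass the threshold. The test was edgeR's quasi-likelihood test over all 12978 tested genes, with a threshold of 0.05 on the Benjamini-Hochberg adjusted p. Of all tested genes, 40.5% passed, 20.4% higher (2646) and 20.1% lower (2613); limma on log2(RPKM + 1) called 2767 higher and 1587 lower, with the median of all genes at 0.04 on that log2 scale. The median log2 change was 0.02 over the 9 members and -0.01 over all tested genes. The 7 members that passed also showed no overlap between the 3 inhibitor and the 3 control libraries, which held for 52.4% of tested genes (25.9% higher and 26.5% lower). Counts were at least 921 in every library for 8 members, and 30 to 63 for Ctse.

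**Figure D1:**
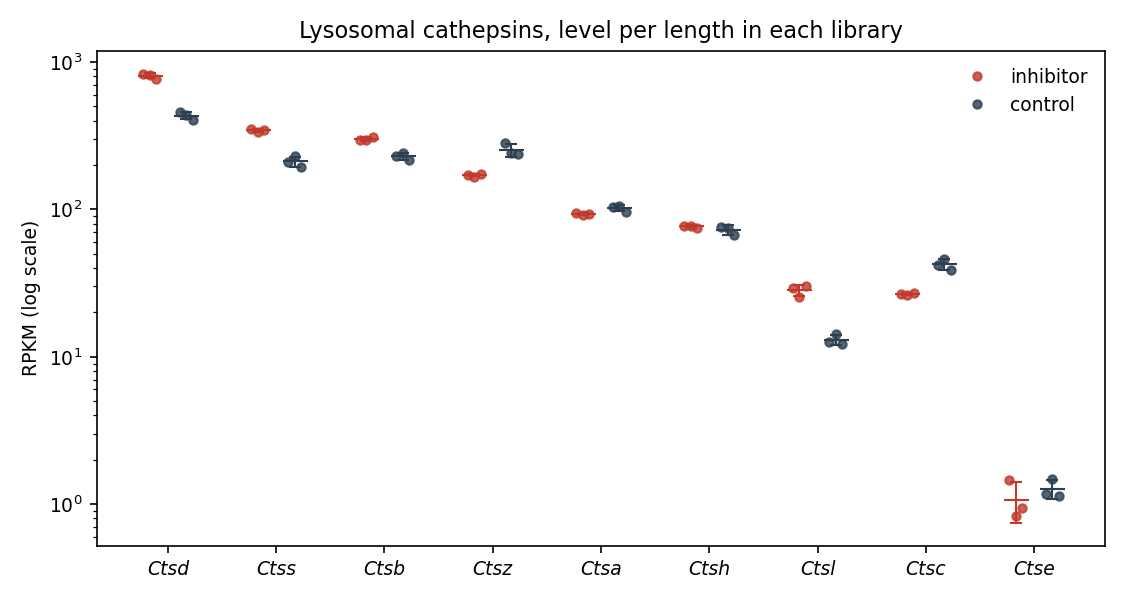
Level of each cathepsin per transcript length (deposited RPKM, log axis) in each library, with the 3 inhibitor libraries left of the 3 control libraries; points are libraries, bars the mean and SD. Ctsd was the most abundant in every library, and Ctse lay near 1 RPKM in both groups.

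Levels of different genes are compared here per transcript length, as the authors' RPKM (reads scaled by the length of the longest transcript and by the size of the library). Ctsd stood highest in both groups, at 806 ± 32.4 RPKM in the inhibitor group and 433 ± 24.6 in the control group (SD, n = 3 each), which placed it 79th and 138th of all listed genes. In the inhibitor group it was followed by Ctss (344 ± 6.93 RPKM), Ctsb (300.1 ± 9.30), Ctsz (170.2 ± 2.79), Ctsa (92.8 ± 1.87), Ctsh (76.5 ± 1.48), Ctsl (28.3 ± 2.45), Ctsc (26.6 ± 0.460) and Ctse (1.07 ± 0.329). All neighbours in this order were apart over the 3 libraries except Ctsl and Ctsc. In the control group the order after Ctsd was Ctsz (253 ± 23.9 RPKM), Ctsb (229 ± 13.1), Ctss (211 ± 17.0), Ctsa (102 ± 5.34), Ctsh (72.6 ± 5.29), Ctsc (42.3 ± 3.67), Ctsl (13.1 ± 1.10) and Ctse (1.27 ± 0.189). There the ranges of Ctsz and Ctsb overlapped, as did those of Ctsb and Ctss. On TMM-scaled counts per kilobase, the control ranges of Ctsb (234 to 241) and Ctss (212 to 229) were apart, and those of Ctsz and Ctsb still overlapped. By group mean, Ctsz held the second place in the control group and the fourth in the inhibitor group. In control library 2, Ctsz (241 RPKM) lay just below Ctsb (242).

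The sum over the members was larger in the inhibitor group. The 9 genes took 0.437, 0.428 and 0.431% of all counts in inhibitor libraries 1 to 3, and 0.341, 0.336 and 0.329% in control libraries 1 to 3. The make-up of that pool also differed. Ctsd took 42.2 to 44.4% of the summed RPKM of the 9 genes in the inhibitor libraries and 31.3 to 32.3% in the control libraries. Ctss took 18.4 to 18.9% in the inhibitor libraries and 14.9 to 16.5% in the control libraries. Ctsz took 9.07 to 9.48% and 17.3 to 19.9% in the inhibitor and control libraries, and Ctsc 1.42 to 1.47% and 2.96 to 3.32%. The share of Ctsb overlapped between the groups, at 15.7 to 17.0% in the inhibitor libraries and 16.2 to 17.4% in the control libraries.

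**Figure D2:**
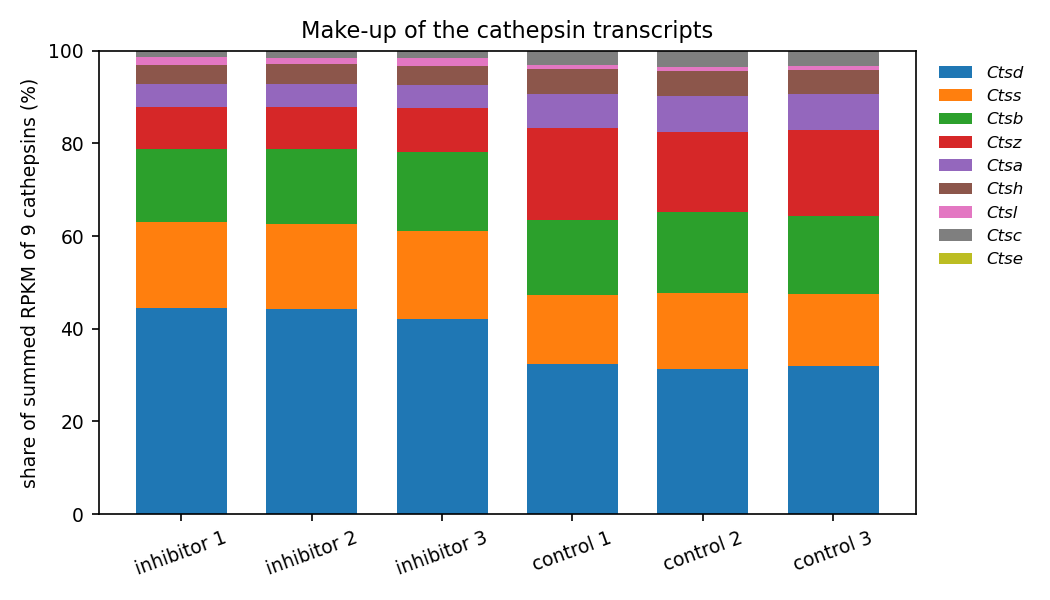
Share of each cathepsin in the summed RPKM of the 9 genes (percent, stacked from 0) in each library, inhibitor libraries left of control libraries. The share of Ctsd was 42.2 to 44.4% in the inhibitor libraries and 31.3 to 32.3% in the control libraries, and that of Ctsz 9.07 to 9.48% and 17.3 to 19.9%.

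Among the aspartic proteases, Ctsd encodes the main aspartic endopeptidase of the lysosome (chromosome 7, 142375910 to 142387827, RefSeq on GRCm38.p6, the build the submitters call mm10). It had 1604, 1559 and 1474 CPM in inhibitor libraries 1 to 3, against 911, 833 and 846 CPM in control libraries 1 to 3. Every inhibitor library lay above every control library, and the change was 1.79-fold or 0.84 ± 0.06 on the log2 scale (± SE; adjusted p = 1.08e-08 by the quasi-likelihood test of edgeR). Ctse, an endosomal relative that is not a typical lysosomal enzyme (chromosome 1, 131638314 to 131675507), had 60, 30 and 34 counts in the inhibitor libraries and 52, 63 and 56 in the control libraries. The groups overlapped, inhibitor library 1 being the highest of its group, and the log2 change of -0.28 had a 95% interval of -0.82 to 0.25 (adjusted p = 0.397, same edgeR test). At this depth neither a fall nor a small rise of Ctse could be told from no change.

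Among the members, Ctsl, Ctss and Ctsb encode cysteine endopeptidases, which cut inside protein chains, and these genes were higher. Ctsb falls into this class only in part, since its product also cuts at a chain end. Ctsl, which encodes cathepsin L (chromosome 13, 64361890 to 64370772), had 103, 89.7 and 106 CPM in inhibitor libraries 1 to 3, against 46.2, 50.2 and 46.7 CPM in control libraries 1 to 3. It was the sole member with at least a 2-fold change (2.09-fold; log2 1.06 ± 0.07, adjusted p = 1.45e-08 by the quasi-likelihood test of edgeR), a size that 6.57% of tested genes reached beside passing the threshold. Ctss, which encodes the enzyme that removes most of the invariant chain in professional antigen-presenting cells (chromosome 3, 95526786 to 95556405), had 479, 459 and 467 CPM in the inhibitor libraries, against 298, 311 and 288 CPM in the control libraries. The groups lay well apart, and the change was 1.57-fold (log2 0.65 ± 0.05, adjusted p = 1.74e-07, same edgeR test). The span of Ctss overlaps that of Hmgb1-ps5 by 628 bases. Ctsb, whose product is both an endopeptidase and a carboxypeptidase (chromosome 14, 63122462 to 63145923), had 1400.4, 1401 and 1472 CPM in the inhibitor libraries, against 1132, 1145 and 1111 CPM in the control libraries. Its change was the smallest of the 4 higher members, at 1.26-fold (log2 0.34 ± 0.05, adjusted p = 8.04e-05, same edgeR test). The span of Ctsb overlaps that of Fdft1, a gene of sterol synthesis, by 774 bases, and the strand of counting is not given in the sources used here. Fdft1 had 464 to 523 counts in the inhibitor libraries and 957 to 1109 in the control libraries, and Ctsb 24023 to 27284 and 22550 to 23642.

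The members Ctsc, Ctsz and Ctsh encode cysteine exopeptidases, which remove residues from chain ends. Ctsc and Ctsz were lower, and Ctsh did not pass the threshold. Whether the direction of change goes with the place of the cut was not tested. Ctsc, which encodes the dipeptidyl peptidase that activates granule serine proteases (chromosome 7, 88278024 to 88315861), had 109, 105 and 108 CPM in inhibitor libraries 1 to 3, against 176, 186 and 170.1 CPM in control libraries 1 to 3. It was 1.65-fold lower in the inhibitor group, and the libraries within each group lay close together (log2 -0.72 ± 0.06, adjusted p = 6.63e-08 by the quasi-likelihood test of edgeR). Ctsz, a carboxypeptidase also called cathepsin X (chromosome 2, 174427494 to 174439039), had 246, 241 and 249 CPM in the inhibitor libraries, against 421, 347 and 369 CPM in the control libraries. Control library 1 was the highest, and the other controls still lay above all inhibitor libraries (log2 -0.63 ± 0.07, adjusted p = 2.34e-06, same edgeR test). The span of Ctsz overlaps that of Nelfcd by 12 bases. Ctsh, an aminopeptidase (chromosome 9, 90054267 to 90076095), had 118, 118 and 113 CPM in the inhibitor libraries and 120.4, 114 and 109.5 CPM in the control libraries. The groups overlapped, and its log2 change of 0.02 had a 95% interval of -0.10 to 0.14 (adjusted p = 0.806, same edgeR test).

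The serine carboxypeptidase gene Ctsa encodes the protective protein that stabilises lysosomal beta-galactosidase and neuraminidase (chromosome 2, 164832872 to 164841032). It had 314, 300.2 and 306 CPM in inhibitor libraries 1 to 3, against 359, 349.8 and 344 CPM in control libraries 1 to 3. All inhibitor libraries lay below all control libraries, by 1.15-fold (log2 -0.20 ± 0.05, adjusted p = 0.00778 by the quasi-likelihood test of edgeR). The call was lost without inhibitor library 2 (log2 -0.18, adjusted p = 0.0507 by the quasi-likelihood test of edgeR) and on the RPKM scale (log2 -0.14, adjusted p = 0.128 in limma). The span of Ctsa overlaps those of Pltp by 1515 and Neurl2 by 725 bases. Pltp had 397 to 535 counts in the inhibitor libraries and 280 to 395 in the control libraries, and Ctsa 5146 to 6114 and 7003 to 7329. Its partner genes were Neu1, the neuraminidase gene, at 46.1 ± 2.27 CPM in the inhibitor group and 56.3 ± 1.78 in the control group (log2 -0.29 ± 0.07, lower, but not called on the RPKM scale at -0.21), and Glb1, the beta-galactosidase gene, which did not pass (log2 -0.07 ± 0.05).

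**Figure D3:**
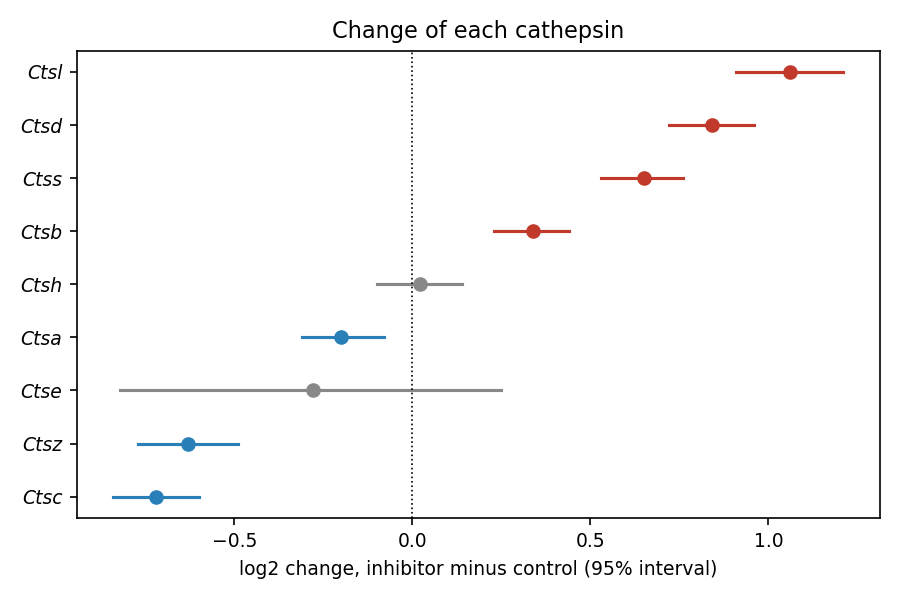
Log2 change of each cathepsin (inhibitor minus control; points) with its 95% interval (lines) from edgeR's quasi-likelihood fit; red passed as higher, blue as lower and grey did not pass. The values run from 1.06 for Ctsl to -0.72 for Ctsc.

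The members with a miR-31-5p seed match moved both ways: Ctsl and Ctsb were higher (log2 1.06 and 0.34) and Ctsc was lower (log2 -0.72). The 6 members without a match held 2 that were higher, 2 that were lower and 2 that did not pass. Of all tested genes, 20.4% were higher and 20.1% lower. Whether a match goes with the direction of change was not tested.

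Many lysosomal genes are read by TFEB and related factors through an E-box, CACGTG, most often within TCACGTGA. Promoters from 250 bases before to 50 after the start site were taken from RefSeq (GRCm38.p6), which matched 6 of the 9 members. Ctsb, Ctse and Ctsh were not analysed here in this respect. Both palindromes were searched as written, and a TCACGTGA match holds a CACGTG match by construction. CACGTG occurred in 7.15% and TCACGTGA in 0.975% of 32817 promoters. The promoters of Ctsd and Ctsa are printed because they held TCACGTGA while these genes moved in opposite directions; CACGTG is in capitals.
Ctsd promoter, chr7:142387778-142388077, minus strand: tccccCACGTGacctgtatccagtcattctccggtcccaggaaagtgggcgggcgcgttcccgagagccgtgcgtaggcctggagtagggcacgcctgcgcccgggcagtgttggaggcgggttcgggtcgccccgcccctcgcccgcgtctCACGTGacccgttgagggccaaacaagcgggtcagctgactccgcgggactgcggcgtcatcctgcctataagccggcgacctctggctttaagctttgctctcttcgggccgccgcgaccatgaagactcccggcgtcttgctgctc
Ctsa promoter, chr2:164833523-164833822, plus strand: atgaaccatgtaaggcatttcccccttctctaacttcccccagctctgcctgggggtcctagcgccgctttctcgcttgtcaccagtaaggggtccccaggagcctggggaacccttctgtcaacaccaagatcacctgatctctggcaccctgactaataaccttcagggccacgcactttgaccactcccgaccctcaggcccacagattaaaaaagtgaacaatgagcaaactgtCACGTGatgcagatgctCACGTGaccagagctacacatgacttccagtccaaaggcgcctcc
In Ctsd, CACGTG began at -245 and -98 from the start site, and the second lay in a TCACGTGA. In Ctsa, CACGTG began at -12 and 6, both in a TCACGTGA; a second Ctsa promoter in RefSeq held none. Ctsl held a CACGTG at -236, and Ctss, Ctsc and Ctsz held none. The letters GAGGAAGT, a core bound by the myeloid factor PU.1, were searched on both strands and lay on the minus strand at -2 in Ctss and at -151 in Ctsc, against 3.20% of all promoters with a match. A pair of GAAA words parted by 2 bases, as bound by interferon regulatory factors, was searched on both strands and began at -21 in Ctss, against 3.43% of all promoters with a match. These matches are letters in a window and say nothing of binding. The factor genes Tfeb (29.9 ± 1.47 CPM in the inhibitor group, 32.5 ± 2.49 in the control group) and Tfe3 (62.6 ± 0.308 and 61.5 ± 2.21) did not pass the threshold, with adjusted p = 0.274 and 0.776 from edgeR. Their relatives Mitf (24.5 ± 3.03 and 17.9 ± 0.400 CPM in the inhibitor and control groups) and Tfec (38.3 ± 0.643 and 49.3 ± 2.66) did pass. Mitf was higher (log2 0.45 ± 0.10) and Tfec lower (-0.36 ± 0.07).

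Of the other cathepsin genes, 4 of 13 listed were tested. Ctsk, the collagen-degrading cathepsin of osteoclasts, was low and higher in the inhibitor group, with 76, 45 and 28 counts in inhibitor libraries 1 to 3, against 12, 10 and 18 in control libraries 1 to 3 (log2 2.07 ± 0.36, adjusted p = 3.44e-04 by the quasi-likelihood test of edgeR). Its log2 change was 0.94 on log2(RPKM + 1), where low levels are compressed, and it passed under all 17 alternatives. Ctsg, a serine protease of neutrophil granules, was lower, at 437, 459 and 509.8 CPM in the inhibitor libraries, against 734, 567 and 613 CPM in the control libraries (log2 -0.44 ± 0.09, adjusted p = 0.00138, same edgeR test). Without control libraries 1 and 3 together it was -0.28, and the call held. Ctso (25.4 ± 1.91 CPM in the inhibitor group, 21.7 ± 0.491 in the control group) and Ctsf (2.96 ± 0.512 and 2.36 ± 0.291) did not pass. Ctso passed under 5 of the 17 alternatives, among them RLE size factors (log2 0.24) and log2(RPKM + 0.1) (0.28). Ctsw had 1 to 9 counts per inhibitor library and 3 to 6 per control library. Cts7 and Ctsr had at most 2 counts in any library, and the remaining 6 listed genes had none, which allows a level of up to 0.141 to 0.178 CPM by counting error alone.

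Genes of cathepsin inhibitors also differed. Of the 8 tested, 5 were higher and 2 lower (62.5 and 25.0%, against 20.4 and 20.1% of all tested genes), with a median log2 change of 0.91. Ctla2a, which encodes a protein like the inhibitory propeptide of cathepsin L, had 495, 525 and 539 CPM in inhibitor libraries 1 to 3, against 124, 105 and 106 CPM in control libraries 1 to 3 (log2 2.22 ± 0.07, adjusted p = 1.95e-12 by the quasi-likelihood test of edgeR). Its close copy Ctla2b had 79.6 ± 2.21 CPM in the inhibitor group and 22.3 ± 4.25 in the control group (log2 1.84 ± 0.10), with the caveat that reads of such near-identical copies can be assigned to either. Cst3, the gene of the secreted cysteine protease inhibitor cystatin C, had 409 ± 18.7 CPM in the inhibitor group and 311 ± 38.2 in the control group (log2 0.40 ± 0.08). Cst7, the gene of the endolysosomal inhibitor cystatin F, which acts on cathepsin C, was lower, at 83.1 ± 4.34 CPM in the inhibitor group and 115 ± 3.07 in the control group (log2 -0.47 ± 0.06). The serpin genes Serpinb6a (log2 1.45 ± 0.11) and Serpinb6b (1.42 ± 0.12), also related copies, were higher. Serpinb1a, whose product inhibits granule serine proteases, was lower (log2 -0.23 ± 0.06), a call that was lost without inhibitor library 3 (-0.21), without control libraries 1 and 3 together (-0.14) and on the RPKM scale (-0.17), each of which left 1 lower gene in the list. Cstb, the cystatin B gene (log2 0.23 ± 0.09, adjusted p = 0.0519 by the quasi-likelihood test of edgeR), did not pass, but passed under 11 of the 17 alternatives, among them DESeq2 (0.24) and the fit without control library 1 (0.35).

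**Figure D4:**
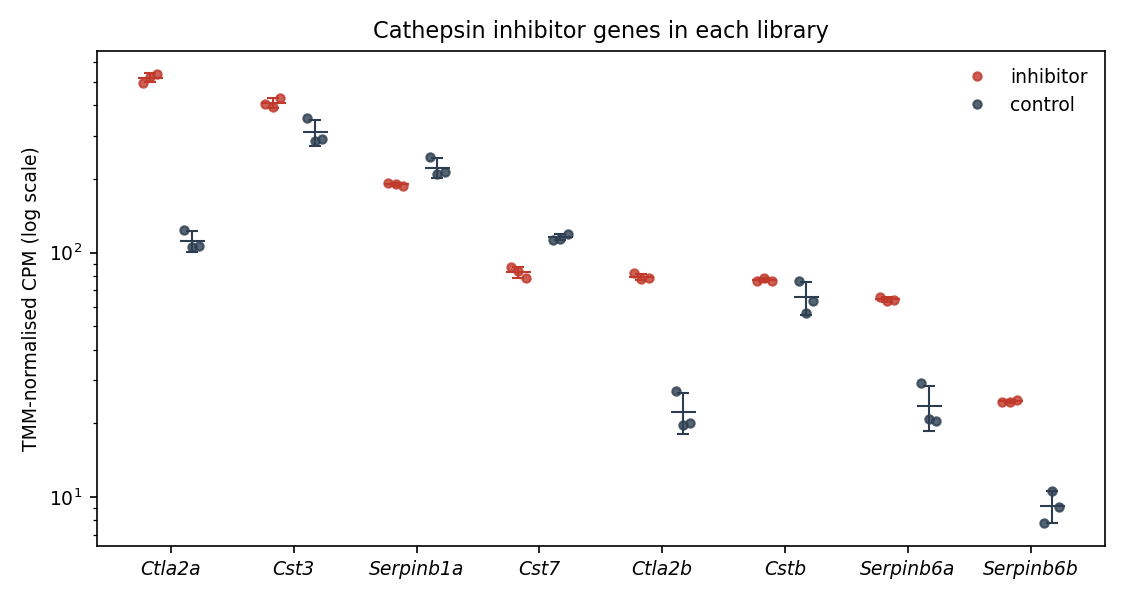
TMM-normalised CPM (log axis) of the 8 tested cathepsin inhibitor genes in each library, inhibitor libraries left of control libraries; points are libraries, bars the mean and SD. Ctla2a lay at 495 to 539 CPM in the inhibitor libraries and 105 to 124 CPM in the control libraries.

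The rest of the lysosome was mixed. Among 31 other lysosomal hydrolase and lipid-handling genes, 7 were higher and 9 lower (22.6 and 29.0%, against 20.4 and 20.1% of all tested genes), with a median log2 change of -0.02; the lower count was 5 without inhibitor library 3. Lipa, the acid lipase gene, had 255 ± 7.52 CPM in the inhibitor group and 133 ± 5.51 in the control group (log2 0.94 ± 0.06). The sulfatase gene Ids was higher (log2 0.69 ± 0.07) and Pld4, an endolysosomal exonuclease gene, lower (-0.55 ± 0.05). Of 10 genes of other lysosomal peptidases and partner proteins, 2 were higher and 4 lower, with 1 higher without inhibitor library 1 or 2 or without control library 3. The asparaginyl endopeptidase gene Lgmn, whose product processes several cathepsins, was higher (log2 0.36 ± 0.06), and Psap, the saposin precursor gene, lower (-0.29 ± 0.05), as was Dpp7 (-0.52 ± 0.10).

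Of 20 lysosome membrane genes, 9 were higher and 1 lower (45.0 and 5.00%), with a median log2 change of 0.13. The lower count was 0 without inhibitor library 3 and 2 without control library 2. Examples were Laptm5 (1638 ± 23.8 CPM in the inhibitor group, 1199 ± 74.0 in the control group; log2 0.45 ± 0.06), the macrophage glycoprotein gene Cd68 (0.34 ± 0.05) and the ion channel gene Tpcn1 (0.31 ± 0.05). Of 18 genes of the proton pump that acidifies the lysosome, 5 were higher and 4 lower (27.8 and 22.2%, median log2 change 0.02). These shares lie near the 20.4 and 20.1% of all tested genes. The lower count was 1 or 2 when any 1 of the inhibitor libraries was left out. Atp6v0d2, a subunit gene known from osteoclasts and macrophages, had 25.1 ± 0.520 CPM in the inhibitor group and 6.44 ± 1.41 in the control group (log2 1.96 ± 0.14). Atp6v0a1 was higher (log2 0.44 ± 0.05) and Atp6v0c lower (-0.27 ± 0.06).

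Of 17 genes of sorting to the lysosome, 2 were higher and 4 lower (11.8 and 23.5%, against 20.4 and 20.1% of all tested genes). The higher count was 1 when any 1 of the inhibitor libraries was left out, and the lower count 2 without inhibitor library 2. Igf2r, the large mannose 6-phosphate receptor gene, had 47.9 ± 1.13 CPM in the inhibitor group and 18.0 ± 0.543 in the control group (log2 1.41 ± 0.08, adjusted p = 1.60e-09 by the quasi-likelihood test of edgeR). The small receptor gene M6pr did not pass (log2 -0.10 ± 0.05), and the sorting genes Sorl1 (-0.34 ± 0.06) and Gga3 (-0.24 ± 0.06, not called on the RPKM scale at -0.17) were lower. Among 16 genes of TFEB family control and the nutrient sensor at the lysosome, 3 were higher and 4 lower (18.8 and 25.0%, median log2 change 0.06). Flcn (log2 -0.54 ± 0.06) and its partner Fnip2 (-0.57 ± 0.07), which keep TFEB family factors in the cytoplasm, were lower, and the GTPase gene Rragd was higher (0.85 ± 0.15, and 0.47 on log2(RPKM + 1)).

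Granule proteases and MHC class II loading are processes in which cathepsins act, and both lists hold genes whose products are not cut by them. Of 13 granule protease genes and partners tested, Ctsg among them, 2 were higher and 5 lower (median log2 change -0.15). The shares were 15.4 and 38.5%, against 20.4 and 20.1% of all tested genes. The higher count was 1 without inhibitor library 3 and 4 without control library 1. Elane, the neutrophil elastase gene whose product cathepsin C activates, had 289.7 ± 7.89 CPM in the inhibitor group and 385 ± 11.0 in the control group (log2 -0.41 ± 0.05). Gzmb, the granzyme B gene, had 12.3 ± 1.78 CPM in the inhibitor group and 59.2 ± 5.95 in the control group (log2 -2.27 ± 0.11), and the mast cell tryptase gene Tpsab1 was low and higher (1.35 ± 0.25). Of 11 genes of MHC class II loading, 10 were higher and 1 lower (90.9 and 9.09%, median log2 change 0.54). The higher count was 7 without inhibitor library 1 or without control library 3. The lower gene was Ifi30 (log2 -0.38). The class II chain genes H2-Ab1 (log2 0.78 ± 0.08) and H2-Aa (0.60 ± 0.06) were among the higher ones. Cd74, the gene of the invariant chain cut by cathepsin S, had 679.7 ± 11.2 CPM in the inhibitor group and 421 ± 27.9 in the control group (log2 0.69 ± 0.06).

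**Figure D5:**
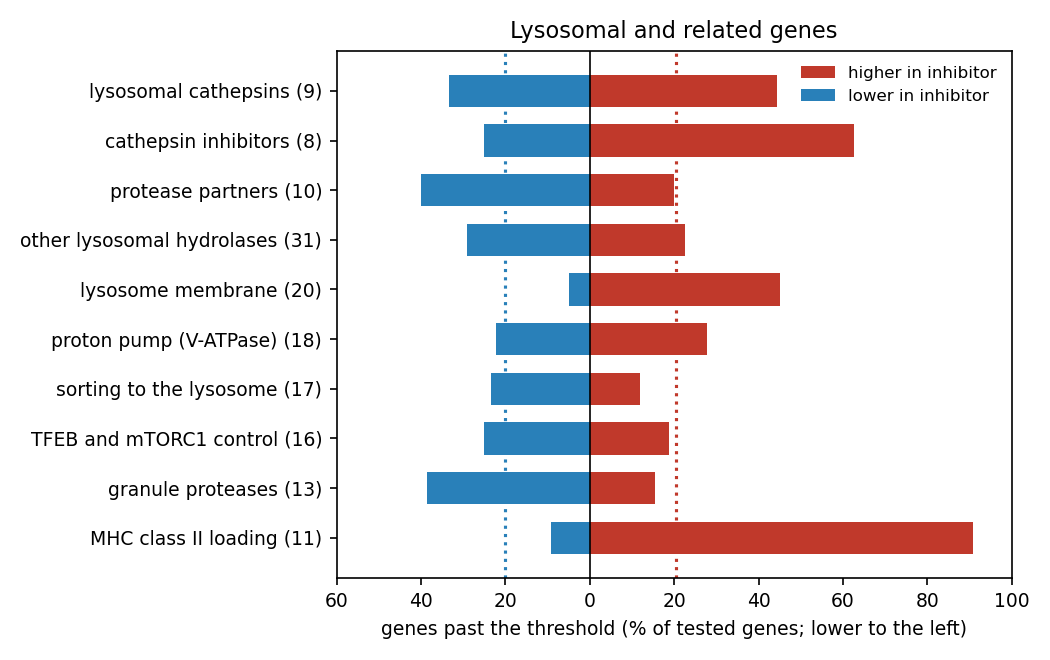
Share of tested genes (percent; number tested in brackets) past the threshold as higher (red, right) and lower (blue, left) in the inhibitor group, for the cathepsins and 9 lists of related genes; dotted lines mark the shares of all tested genes, 20.4% higher and 20.1% lower. The cathepsins had 44.4% higher and 33.3% lower, and the MHC class II loading list 90.9% higher.

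Markers of the cell types that the sort could hold differed between the groups to unequal extents. For comparison, 20.4% of all tested genes were higher and 20.1% lower, and these marker lists are short. The 8 megakaryocyte genes were all higher, with a summed level of 3305 to 3446 CPM in the inhibitor libraries and 1443 to 1673 CPM in the control libraries. Of 16 monocyte and macrophage genes, 4 were higher and 5 lower (25.0 and 31.2%). Their sums were 1183 to 1214 and 1552 to 1616 CPM in the inhibitor and control libraries. The log2 changes of these 16 genes ran from -1.77 to 0.93. Csf1r (454 ± 3.23 and 439 ± 6.44 CPM) and Adgre1 (67.6 ± 2.43 and 67.7 ± 3.79) did not pass. F13a1 (log2 -1.77 ± 0.06) and Ly6c2 (-0.94 ± 0.06), picked after their values were seen, were lower. Of 10 tested neutrophil genes, 6 were higher and 4 lower (sums of 5002 to 5123 CPM in the inhibitor and 5574 to 6148 in the control libraries), S100a8 was higher (log2 1.62 ± 0.06) and Ly6g had 1 count in all, with Retnlg at 0 in every library. Of 11 dendritic cell genes, 4 were higher and 4 lower (911 to 934 and 879.6 to 993 CPM in the inhibitor and control libraries); Itgax was higher (log2 0.43 ± 0.10, not called without control libraries 1 and 3 at 0.17) and Ccr9 lower (-2.78 ± 0.17). Of 7 mast cell, basophil and eosinophil genes tested, 3 were higher and 2 lower (725 to 797 and 699 to 747 CPM in the inhibitor and control libraries), with Cpa3 at 635 ± 38.4 and 549 ± 33.8 CPM and higher (log2 0.21 ± 0.06, not called without inhibitor library 3 at 0.16); Gzmb, named above, is also in this list. Of 10 stem and progenitor genes, 2 were higher and 3 lower (934 to 989.6 and 933 to 972 CPM in the inhibitor and control libraries). Of 6 erythroid genes tested, 4 were higher and none lower (387 to 394 and 360.1 to 429 CPM in the inhibitor and control libraries), and Klf1 had 0.269 ± 0.229 CPM in the inhibitor group and 0.732 ± 0.149 in the control group. Summed B cell (10.6 to 11.2 and 17.4 to 19.1 CPM) and T and NK cell markers (25.3 to 29.2 and 33.0 to 35.5 CPM) were low in the inhibitor and control libraries, and Cd3e had 1 count in all. The part of these cell types in the cathepsin values was not tested.

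Ctsd had the highest mean RPKM of the members, and the genes whose log2 CPM followed it most closely over the 6 libraries were Pf4, the platelet factor 4 gene (Pearson r = 0.9990), the ion exchanger gene Slc24a3 (0.9988) and Cdkn1a, the p21 gene (0.9987). Pf4 had 1182 ± 57.5 CPM in the inhibitor group and 449.5 ± 34.2 in the control group, Slc24a3 56.3 ± 3.60 and 29.5 ± 2.22, and Cdkn1a 185 ± 7.36 and 79.9 ± 4.84. The 6 points fall into the study's groups and share their libraries, and 417 of the 12969 other tested genes had r above 0.98.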

How the data were processed

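The authors deposited, for each library, read counts per RefSeq gene symbol and RPKM values, with the length of the longest transcript, per the file headers; RPKM are counts scaled by that length and by a library total. That total, worked back from count and length, was above the summed counts by 0.220 to 0.346% in the inhibitor libraries and by 2.82, 0.492 and 8.68% in control libraries 1 to 3, so tests used counts. Trizol extraction and a VAHTS mRNA kit are given per the labels' protocols. Per the submitters' processing notes, mm10 was the build and bcl2fastq 2.20 a tool. Aligner, counting tool and strand setting were not given in the sources used here.

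Members and lists were chosen with earlier results of these data known. The inhibitor group was set against the control group (n = 3 each) with edgeR 4.0.16 in R 4.3.3: filterByExpr (minimum count 10, total 15; 12978 genes kept), TMM, robust quasi-likelihood test, Benjamini-Hochberg adjustment over all tested genes, threshold 0.05. Levels are TMM-scaled CPM, mean ± SD. A floor of 3 counts covers counting error only. Standard errors of log2 changes were worked back from the log2 change and the F statistic of the quasi-likelihood test. The 95% intervals were built from these standard errors. The procedure was tested on simulated data. Libraries of a group differed by more than counting noise (chi-square per degree of freedom 3.04 to 4.24 among inhibitor and 7.55 to 16.78 among control libraries). Named genes were the members, the other cathepsin genes, up to 3 called genes of smallest p per related list, preset markers and the 3 genes most like Ctsd. Cst3, Cst7, Cstb, the serpin genes, Neu1, Glb1, M6pr, Tfeb, Tfe3, Ifi30, F13a1, Ly6c2, Ccr9, Procr, Hlf, Retnlg, Lyz2, Rn45s and the genes overlapping a member were added after their values were seen. Mitf and Tfec were added likewise. Alternatives used DESeq2 1.42.0 and limma 3.58.1, among others. Sequences were searched with Python 3.11.15.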

Additional observations from a re-analysis of the deposited data

How the results depend on the processing

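Each member was refitted under 17 alternatives (Ctsb under 16, since leaving out the 50 most abundant genes removes it), which gave 152 values. In 148 the direction and the side of the threshold were those reported. The exceptions were Ctsa, which kept its direction but not its call on log2(RPKM + 1) and log2(RPKM + 0.1) (-0.14 in both) and without inhibitor library 2 (-0.18), and Ctsh, which turned to -0.01 without control library 3, ranged from -0.01 to 0.06 over the fits that leave out 1 library, and passed in none. Ctsd ranged from 0.81 to 0.90, Ctsl from 0.98 to 1.13, Ctss from 0.59 to 0.71, Ctsb from 0.31 to 0.39, Ctsc from -0.79 to -0.65 and Ctsz from -0.68 to -0.50. Ctse ranged from -0.57 to -0.12. The count of members past the threshold was 6 or 7, and that of all genes 4044 to 6365. On log2(RPKM + 1) the split of all calls was 2767 higher and 1587 lower, against 2646 and 2613 on TMM-scaled counts. Without control libraries 1 and 3 together, 7 members passed. Of 340 list counts, 36 moved by more than 1.5 times; on log2(RPKM + 1) the lower counts were 3 for other hydrolases, 1 for the proton pump, 1 for sorting and 1 for inhibitors. The cause was not tested.

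With the replicate number as a block, 5673 genes and 7 members passed. Deviations of same-numbered libraries correlated at 0.058, 0.008 and 0.037 over the tested genes, and those of different-numbered libraries at -0.045 to 0.016. Control library 2 correlated best with inhibitor library 3 (0.016). Such small values cannot decide whether the numbers pair libraries. The labels do not say that they do, so the main fit had no block. Counts were low for Ctse, Ctsf, Ctsk and Ctsw. Of these, Ctsk passed all the same, and Ctsw was too low to be tested.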
